A study of Mus musculus with 2 samples.

Results

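Neurofilament and neuron-like genes were examined in sorted cells of the embryonic mouse sinoatrial node, the small cluster of specialised heart muscle cells that paces the heartbeat. The group holds 9 listed genes, Nefl, Nefm, Stmn2, Gap43, Tubb3, Uchl1, Prph, Ina and Elavl4, and its members were the entries of the deposited gene table that carry one of these symbols. Of the 9 genes, 6 are among the 12557 entries of the table, and Stmn2, Prph and Ina were not measured. The mutant embryos were Hcn4-CreERT2; Isl1f/f; Rosa-tdTomato and the control embryos Hcn4-CreERT2; Isl1+/+; Rosa-tdTomato, all of the ICR strain. Both genotypes therefore carried a tamoxifen-inducible Cre recombinase driven by Hcn4, a pacemaker ion channel gene, and a red reporter that Cre switches on, and both were given tamoxifen. Nodes were taken 36 hours after tamoxifen, at embryonic day 12 to 12.5. Embryos of a genotype were pooled, CD31-bearing endothelial cells were removed on beads and tdTomato-positive cells were sorted, so each genotype gave 1 library. Read totals inferred from the deposited values were 119018888 for the Isl1 mutant library and 110117186 for the control library.

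Because each genotype is a single library, replicate error is unknown and no test was possible. Levels are RPKM, reads per kilobase of exon scaled to the read total of the library. A difference is described by its size, and the interval beside a fold is an exact 95% interval that covers counting error alone: PCR copies of a molecule are counted as separate reads. Isl1 itself, the LIM-homeodomain transcription factor gene that was deleted, stood at 1.52 RPKM in the mutant library, against 7.65 RPKM in the control library (5.02-fold lower, interval 4.53 to 5.56).

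Neurofilaments are the intermediate filaments of axons. They are built from light, medium and heavy chains, together with alpha-internexin (Ina) or, in peripheral neurons, peripherin (Prph), and they set the calibre of axons. The other genes are standard markers of neurons. Tubb3 encodes the neuronal beta-tubulin of growing neurites, Stmn2 a stathmin that destabilises microtubules in growth cones, and Gap43 a membrane protein of growth cones. Uchl1 encodes PGP9.5, an abundant ubiquitin hydrolase of neurons, and Elavl4 an RNA-binding protein, HuD, that stabilises neuronal messenger RNAs. The node is densely innervated by autonomic neurons, and pacemaker cells themselves make some proteins that are better known from neurons.

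The 6 measured genes did not move together. Nefl was 2.28-fold higher in the Isl1 mutant library and Tubb3 4.74-fold lower, while Nefm, Elavl4, Gap43 and Uchl1 differed by less than 1.5-fold. By any size, 3 members were higher and 3 lower as deposited, Nefm with a reservation given below. Over 12446 genes, counted once per symbol, 32.9% were higher and 67.1% lower in the mutant library. The members' median log2 ratio was 0.07 on the log2(RPKM + 1) scale, beside -0.18 over all genes.

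Every listed gene reached 1 RPKM in the mutant library, the control library or both. A gene under that level in one library was thus listed only if it was higher in the other. This holds for Tubb3 among the members, which was listed through the control library, and counts over listed genes are given as descriptions with no support drawn from them. Over all 12446 genes, 1601 were listed through the control library alone and 467 through the mutant library alone. Both libraries are bulk RNA, in which fewer cells of a type and less RNA per cell cannot be told apart.

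The position of Nefl and Nefm may bear on both values and is given first. Nefl (ENSMUSG00000022055) lies on the plus strand of chromosome 14 at 68701920 to 68707152, and Nefm (ENSMUSG00000022054) on the minus strand at 68700647 to 68742903, in build mm9, so the deposited coordinates place all of Nefl inside Nefm. In GENCODE release M21, on build GRCm38, a long Nefm transcript ends in a distal exon of 2381 bases, of which 1108 bases lie opposite the first exon of Nefl (1147 bases). The table names this distal exon among those used for Nefm. The exon length recovered from the Nefm values was 5711 bases, which equals the summed length of 4 Nefm exons, the distal one included, each taken as end minus start. The library kit does not mark strand, so a read from the shared bases cannot be assigned to either gene. The end of the shared stretch is printed because exons of both genes hold these bases. Whether reads on them were counted for both genes is not stated. They are coding sequence in both annotations, and the Nefl line continues to the end of its first exon, chr14:68084911-68085009 on the plus strand of GRCm38. The Nefm line is chr14:68084911-68084970 on the minus strand, and capitals mark the bases that both exons hold.
Nefl: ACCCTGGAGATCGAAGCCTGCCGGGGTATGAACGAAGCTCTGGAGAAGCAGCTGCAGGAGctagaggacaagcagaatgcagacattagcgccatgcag
Nefm: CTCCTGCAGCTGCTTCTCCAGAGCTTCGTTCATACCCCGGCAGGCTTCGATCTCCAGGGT

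**Figure D1:**
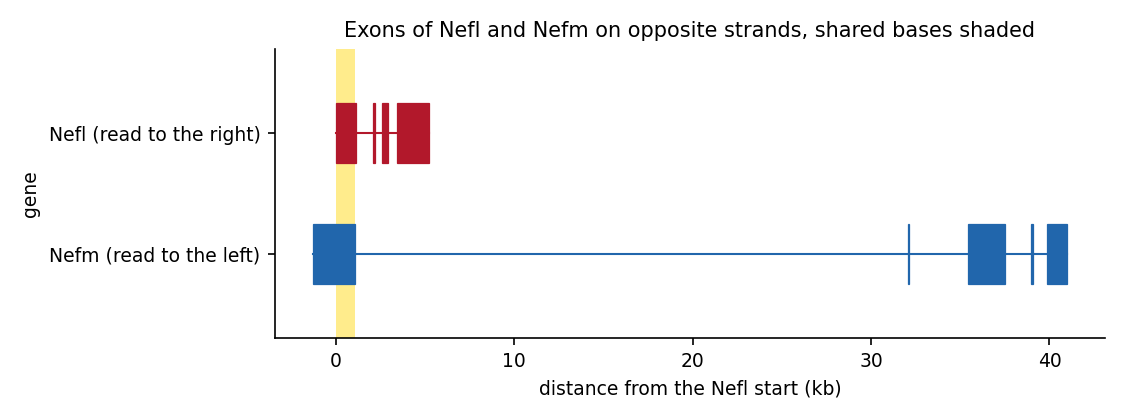
Exons (boxes) of Nefl and Nefm along the chromosome, as distance from the Nefl start in kilobases, in GENCODE release M21; Nefm is read from right to left. The shaded band marks the 1108 bases that the first exon of Nefl shares with the distal exon of Nefm.

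Among the filament genes, Nefl, the light chain on which the other chains assemble, stood at 7.65 RPKM in the mutant library and 3.36 RPKM in the control library. This is 2.28-fold higher, with an interval of 2.13 to 2.43 from 3261 mutant and 1326 control reads or more. No other member was as far on the higher side. Nefm, the medium chain, was at 1.999 RPKM in the mutant library and 1.48 RPKM in the control library, 1.35-fold higher (interval 1.24 to 1.47, from at least 1359 and 930 reads). The exon length behind the Nefm value includes the bases shared with Nefl. If the Nefl reads were spread evenly over its 3583 recovered bases and those on shared bases were counted for both genes, 1008 mutant and 410 control reads would fall on the shared bases. Taking these away leaves 351 mutant and 520 control reads for Nefm, which is 1.60-fold lower in the mutant library, so the direction of Nefm is not settled by the deposited values. Neither condition was tested.

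Nefh, the heavy chain gene, is not among the 9 genes but completes the triplet. It was at 1.06 RPKM in the mutant library and 0.0878 RPKM in the control library, 12.03-fold higher, with a wide interval of 4.90 to 38.3 from at least 65 and 5 reads. It was listed through the mutant library alone. At its start, 593 bases overlap Ap1b1 on the opposite strand, a gene at 20.4 RPKM in the mutant library and 23.6 RPKM in the control library. The deposited values of all 3 neurofilament chain genes were higher in the mutant library (32.9% of all genes were). For Nefm the reservation above holds. Nefh, under 1 RPKM in the control library, could be listed only if it was higher in the mutant library. No support is drawn from the 3 genes together.

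Of the microtubule and growth cone genes, Tubb3 (ENSMUSG00000062380; chromosome 8, 125935324 to 125945915, mm9) was at 0.610 RPKM in the mutant library and 2.89 RPKM in the control library. This is 4.74-fold lower, with an interval of 3.56 to 6.41 from 59 mutant and 259 control reads or more, the largest difference among the members. Tubb3 lies within Gm20388, a long transcript on the same strand at 7.34 RPKM in the mutant library and 11.1 RPKM in the control library, and reads on shared exons cannot be separated. Gap43 (ENSMUSG00000047261; chromosome 16, 42248555 to 42340764) was at 1.47 RPKM in the mutant library and 1.59 RPKM in the control library. The recovered reads were at least 214 in each library, and the interval of its ratio, 0.762 to 1.12, includes no difference.

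Elavl4 (ENSMUSG00000028546; chromosome 4, 109876327 to 110024514) was at 2.05 RPKM in the mutant library and 1.63 RPKM in the control library, 1.26-fold higher (interval 1.04 to 1.52, from at least 269 and 198 reads). Uchl1 (ENSMUSG00000029223; chromosome 5, 67067360 to 67078472) was by far the best expressed member, at 18.4 RPKM in the mutant library and 20.3 RPKM in the control library. This is 1.10-fold lower, with an interval of 1.05 to 1.16 from 2844 mutant and 2897 control reads or more. Its first 377 bases overlap Gm16832 on the opposite strand, at 0.966 RPKM in the mutant library and 1.503 RPKM in the control library. Per length, Uchl1 exceeded every other measured member in both libraries and Nefl came next. Below them, the control library had Tubb3 above Elavl4, Gap43 and Nefm, whereas the mutant library had Elavl4, Nefm and Gap43 above Tubb3. Elavl4, Nefm and Gap43 lay between 1.47 and 2.05 RPKM in both libraries.

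**Figure D2:**
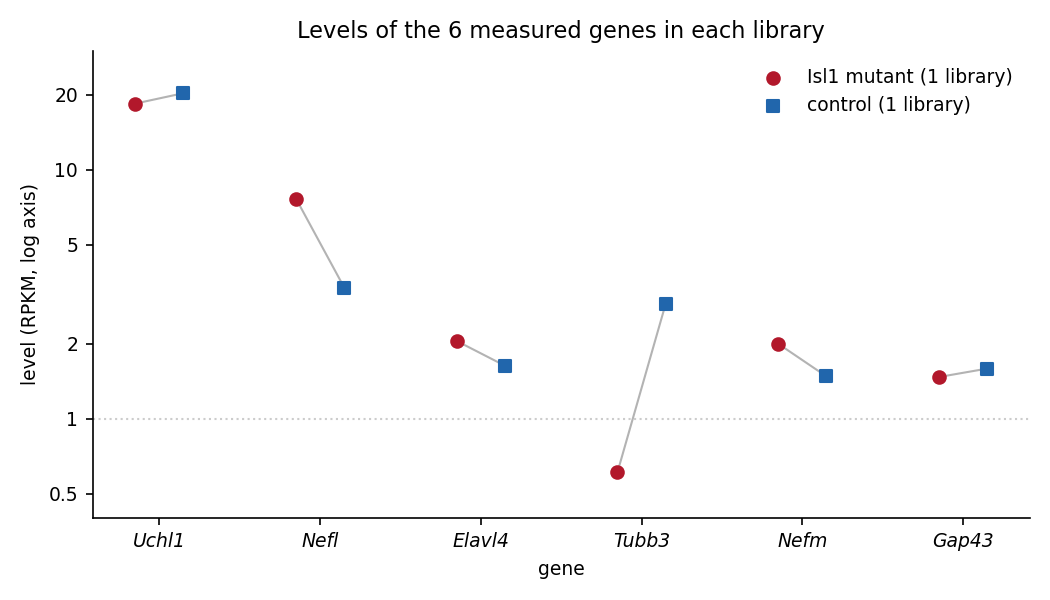
Level in RPKM, on a log axis, of each measured gene in the Isl1 mutant library (circles) and the control library (squares); grey lines join the values of a gene and the dotted line marks 1 RPKM. Nefl lies higher in the mutant library (7.65 against 3.36 RPKM), Tubb3 lies lower (0.610 against 2.89 RPKM), and the other 4 genes lie close together.

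A size rule was applied across the table, calling a gene when log2((mutant RPKM + 1)/(control RPKM + 1)) was at least 1 in size and at least 1 library reached 5 RPKM. By it 64 of 6343 genes (1.01%) passed on the higher side and 170 (2.68%) on the lower side of the mutant library. Only Nefl and Uchl1 of the 6 measured members reached 5 RPKM, and 0 of these 2 were called. Nefl, at 0.99, lay just below the threshold, and Uchl1 was at -0.13. With the floor at 1 RPKM, all 6 members could be counted. Then 0 were at least 2-fold higher, beside 1.12% of all genes, and 1, Tubb3 at -1.27, was at least 2-fold lower, beside 3.93% of all genes. Without a pseudocount, 1 member (Nefl) was at least 2-fold higher, beside 3.29% of genes, and 1 (Tubb3) at least 2-fold lower, beside 13.8%.

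The ratio of mutant to control moved with the level of a gene, which bears on members near 2 RPKM. Below 2 RPKM, taken as the geometric mean of both libraries, 3552 genes had a median log2 ratio of -0.62 without a pseudocount, with an interquartile range of -1.29 to 0.03. The listing rule partly shapes this class, because genes with neither library at 1 RPKM are absent. Of all 12446 genes, 1601 were listed through the control library alone and 467 through the mutant library alone. The range of the class is thus a description, and no support is drawn from it. Nefm at 0.44 as deposited, Elavl4 at 0.33 and Tubb3 at -2.25 lay outside that range, while Gap43 at -0.11 lay inside it. With evenly covered Nefl reads removed from the shared bases, Nefm would be at -0.68, inside the range, so its place is not settled. Between 5 and 10 RPKM the median was -0.18 with an interquartile range of -0.48 to 0.10, beside 1.19 for Nefl. Between 10 and 100 RPKM the median was -0.06, beside -0.14 for Uchl1.

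**Figure D3:**
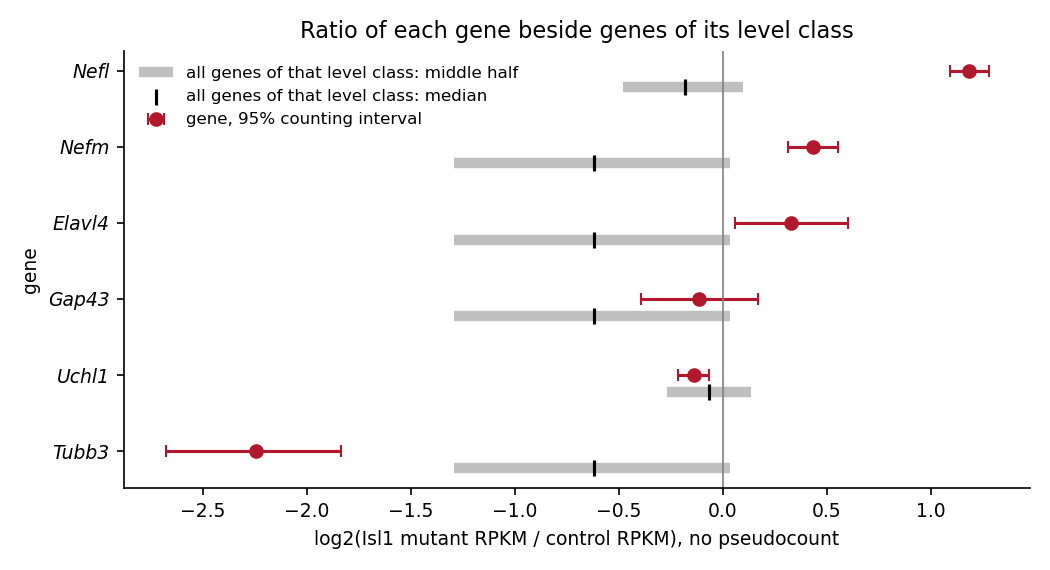
Log2 ratio of Isl1 mutant over control RPKM, without a pseudocount, for each measured gene (circles, with exact 95% counting intervals), above the median (tick) and interquartile range (grey bar) of all genes in the same level class. Nefl, Nefm and Elavl4 lie above the interquartile range of their class, Tubb3 lies below it, and Gap43 and Uchl1 lie within it. Nefm is drawn as deposited, and its direction is not settled. The lowest class is partly shaped by the listing rule of 1 RPKM.

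Relatives of the members, many of them made in most cells, were counted beside them. Of 34 listed relatives 25 were measured, 12 higher and 13 lower (32.9% and 67.1% of all genes), with a median log2 ratio of -0.08 on the log2(RPKM + 1) scale. Among other intermediate filament genes, Vim, the mesenchymal vimentin gene, was at 279 RPKM in the mutant library and 278 RPKM in the control library. Des, the muscle desmin gene, was at 346 RPKM in the mutant library and 269 RPKM in the control library, 1.29-fold higher, and Lmna, the lamin A gene, was 1.45-fold lower (7.59 RPKM in the mutant library, 11.0 RPKM in the control library).

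The beta-tubulin genes were divided. Tubb2b, an isotype of the developing brain, was at 33.5 RPKM in the mutant library and 66.1 RPKM in the control library, 1.97-fold lower (interval 1.92 to 2.02). Tubb2a was 1.69-fold lower (30.3 RPKM in the mutant library, 51.1 RPKM in the control library), and Tubb6 was 1.84-fold higher (94.4 RPKM in the mutant library, 51.2 RPKM in the control library). Tubb2a and Tubb2b are nearly identical, so the division of reads between them is uncertain. Both lay on the lower side with Tubb3, while 5 of the 10 measured tubulin genes were higher and 5 lower. Tuba1a, the most abundant of the list, differed by 1.01-fold (1447 RPKM in the mutant library, 1438 RPKM in the control library), although Tuba1a, Tuba1b and Tuba1c are also close copies of each other.

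For the remaining members, Stmn1, the widely made relative of Stmn2, was at 202 RPKM in the mutant library and 180 RPKM in the control library, and was the 1 stathmin of 3 that was measured. Marcks and Marcksl1, substrates of protein kinase C that resemble GAP43 in function, were 2.02-fold lower (4.41 RPKM in the mutant library, 8.91 RPKM in the control library) and 1.33-fold lower (7.41 RPKM in the mutant library, 9.86 RPKM in the control library). Uchl3 and Uchl5 were 1.19-fold and 1.40-fold higher, and Bap1 1.26-fold lower, beside the 1.10-fold lower value of Uchl1. Elavl1, the form made in all tissues, was 1.80-fold lower (1.77 RPKM in the mutant library, 3.19 RPKM in the control library). Elavl3, a neuronal form, was at the authors' fill value for no read in the mutant library and at 16 reads in the control library, counted over only 59 bases, so no fold is given. Elavl3 was the 1 relative past the 2-fold size on the lower side at the 1 RPKM floor (3.93% of all genes), and that call rests on the fill value.

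Most other measured neuronal genes had lower values in the mutant. Of 75 genes in 3 lists, 37 were measured, 31 lower and 6 higher (67.1% and 32.9% of all genes), with 0 called higher and 5 called lower at the floor of 1 RPKM (1.12% and 3.93% of all genes), and a median of -0.33 on the log2(RPKM + 1) scale beside -0.18 over all genes. Of these 37 genes, 12 were listed through the control library alone and 1 through the mutant library alone (1601 and 467 of all 12446 genes). Set against all genes of the same level, a breakdown made after seeing the data, the median was -0.59 for 17 genes below 2 RPKM (-0.35 over all genes of that level) and -0.34 for 6 genes between 5 and 10 RPKM (-0.16). It was close to that of all genes for 6 genes between 2 and 5 RPKM (-0.23 and -0.24) and for 8 genes between 10 and 100 RPKM (-0.08 and -0.06). Below 2 RPKM both medians are partly shaped by the listing rule. The 6 higher genes were Map2, Dpysl2, Dpysl3, Kif5c, Klc1 and Dbh, at most 1.53-fold, and they are named here after their values were seen.

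In the list of neuronal cytoskeleton and axon growth, 16 of 23 genes were measured, with a median of -0.23. Of these, 5 were higher and 11 lower (32.9% and 67.1% of all genes). Through the control library alone 4 were listed, and 1 through the mutant library alone (1601 and 467 of all 12446 genes). Mapt, the tau gene of axonal microtubules, was at 0.227 RPKM in the mutant library and 1.42 RPKM in the control library, 6.25-fold lower (interval 4.74 to 8.37). Crmp1, a semaphorin signalling gene of growth cones, was 10.8-fold lower (interval 8.33 to 14.2; 0.181 RPKM in the mutant library and 1.96 RPKM in the control library), and it overlaps Evc on the opposite strand. Both were listed through the control library alone, as Tubb3 was. Map1a was 2.61-fold lower (2.31 RPKM in the mutant library, 6.02 RPKM in the control library), but its deposited span overlaps 9 other genes. The best expressed genes of the list differed less. Map1b, a microtubule protein of growing axons, was at 57.2 RPKM in the mutant library and 60.2 RPKM in the control library, Dpysl3 at 59.4 RPKM in the mutant library and 49.5 RPKM in the control library, and Ncam1, a cell adhesion gene, was 1.503-fold lower.

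All 11 measured genes of a list of 24 other pan-neuronal genes were lower (67.1% of all genes), and their median was -0.76. Of these, 3 were lower by the 2-fold size at the 1 RPKM floor (3.93% of all genes). Among the 11 genes, 4 were listed through the control library alone (1601 of all 12446 genes), Eno2 and Scg5 included, and could only be lower. Eno2, the neuron-specific enolase gene, was at 0.961 RPKM in the mutant library and 4.15 RPKM in the control library, 4.32-fold lower (interval 3.83 to 4.89). Rtn1, a reticulon gene of the endoplasmic reticulum of neurons, was 2.18-fold lower (6.53 RPKM in the mutant library, 14.2 RPKM in the control library), and Scg5, a chaperone gene of secretory granules, 9.14-fold lower from at least 11 and 93 reads. The best expressed genes of the list, Ndrg4 (66.6 RPKM in the mutant library, 67.5 RPKM in the control library) and Nnat (50.9 RPKM in the mutant library, 54.1 RPKM in the control library), differed by under 1.1-fold. Vsnl1, a calcium sensor gene and the next by level, was 1.90-fold lower (8.18 RPKM in the mutant library, 15.5 RPKM in the control library).

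**Figure D4:**
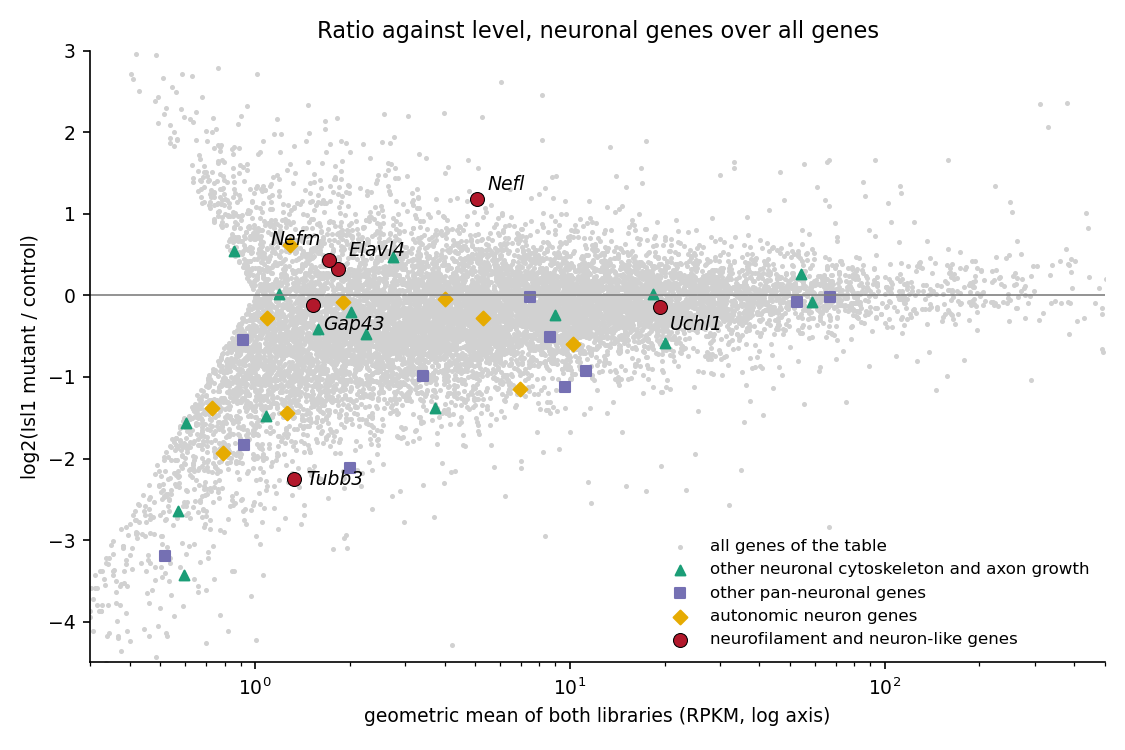
Log2 ratio of Isl1 mutant over control RPKM against the geometric mean level of both libraries on a log axis, for the measured members (red circles, labelled), 3 lists of other neuronal genes (coloured symbols) and all genes of the table (grey dots). Most coloured symbols lie below 0, as Tubb3 does, while Nefl at 1.19 lies above them; the empty wedge at the left arises because a gene was listed only where 1 library reached 1 RPKM.

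Genes of autonomic neurons were measured for 10 of 28, 1 higher and 9 lower (32.9% and 67.1% of all genes), with a median of -0.38. Of the 10 genes, 4 were listed through the control library alone (1601 of all 12446 genes), Th and Slc18a2 among them, and could only be lower. Gfra2, the neurturin receptor gene of parasympathetic neurons, was at 4.66 RPKM in the mutant library and 10.3 RPKM in the control library, 2.21-fold lower (interval 1.93 to 2.54). Th, which encodes the first enzyme of catecholamine synthesis, was 3.83-fold lower (0.404 RPKM in the mutant library, 1.54 RPKM in the control library), and Slc18a2, a vesicular monoamine transporter gene, was 2.71-fold lower (0.768 RPKM in the mutant library, 2.08 RPKM in the control library). Ddc, which encodes the enzyme that follows that of Th in catecholamine synthesis, was at 3.96 RPKM in the mutant library and 4.09 RPKM in the control library. Dbh, which makes noradrenaline from dopamine, was on the higher side at 1.59 RPKM in the mutant library and 1.04 RPKM in the control library (1.53-fold, interval 1.01 to 2.36). Phox2a, a transcription factor gene of autonomic neurons, was at 1.86 RPKM in the mutant library and 1.96 RPKM in the control library. Among genes taken as defining for neurons, Phox2a, Th, Dbh and the synaptic vesicle gene Syt1 were measured, while Rbfox3, Snap25, Syp and Chat were not. Syt1 was at 0.490 RPKM in the mutant library and 1.74 RPKM in the control library.

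Markers of other cells were summed over their measured genes to set beside these values. The 5 measured of 15 neural crest and Schwann cell genes summed to 254 RPKM in the mutant library and 215 RPKM in the control library, nearly all of it Cryab, which heart muscle also makes, at 242 RPKM in the mutant library and 197 RPKM in the control library. Of the 5 genes 2 were higher and 3 lower (32.9% and 67.1% of all genes), with 2 listed through the control library alone (1601 of all 12446 genes). Mbp, a gene of Schwann cells, was 1.21-fold higher and Cryab 1.23-fold higher, Sox9 3.92-fold lower and Ednrb 1.61-fold lower. The genes Sox10, Foxd3 and Erbb3 were not measured. Red cell markers (11 of 11 measured) summed to 71.9 RPKM in the mutant library and 416 RPKM in the control library, macrophage markers (8 of 9) to 8.19 RPKM in the mutant library and 43.8 RPKM in the control library, fibroblast markers (10 of 10) to 222 RPKM in the mutant library and 508 RPKM in the control library, and endothelial markers (6 of 8) to 16.5 RPKM in the mutant library and 29.2 RPKM in the control library. All genes measured in these 4 lists were lower in the mutant library (67.1% of all genes). Of them, 1 red cell, 5 macrophage and 2 endothelial markers were listed through the control library alone (1601 of all 12446 genes) and could only be lower. Pacemaker markers (9 of 10) summed to 57.3 RPKM in the mutant library and 126 RPKM in the control library. All 9 were lower (67.1% of all genes), but they include Isl1, the deleted gene, and Hcn4, which was listed through the control library alone. Working heart muscle markers (10 of 10) summed to 18018 RPKM in the mutant library and 12317 RPKM in the control library. All 10 were higher (32.9% of all genes). Markers of several cell types thus moved with the lower neuronal genes and, in working muscle, with the higher Nefl value, and their part in these results was not tested.

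**Figure D5:**
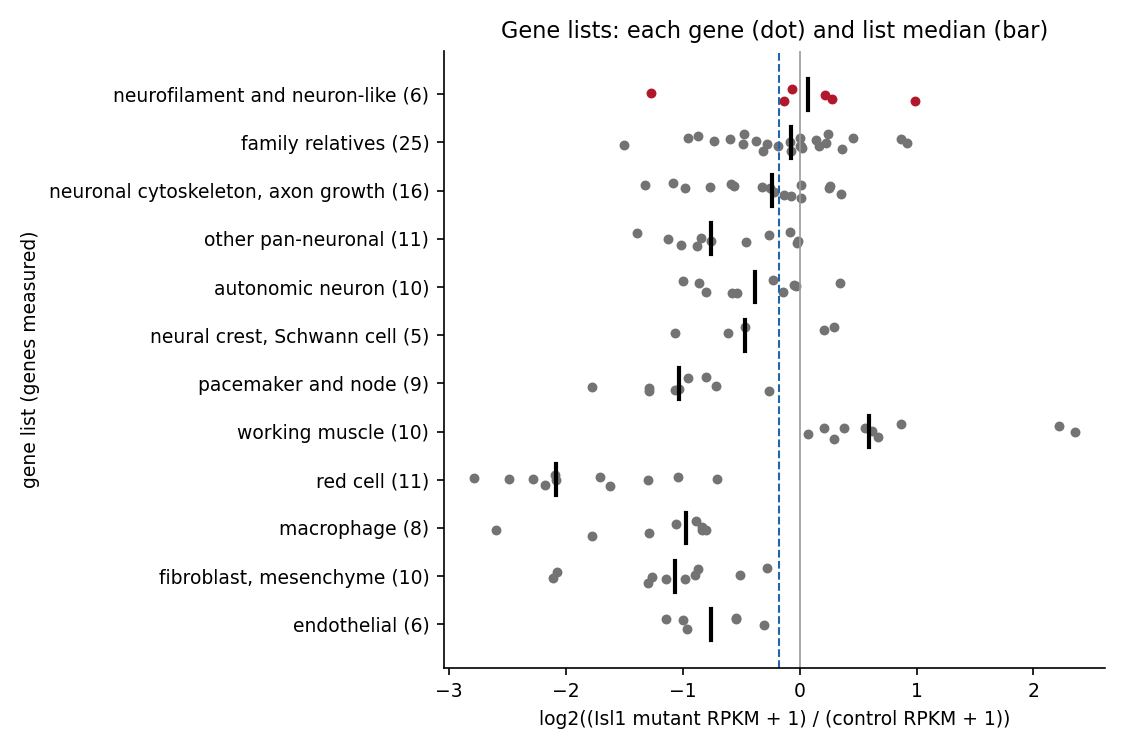
Log2((Isl1 mutant RPKM + 1)/(control RPKM + 1)) of each measured gene (dots) and the median (black bars) of the members and of the other gene lists, with the number measured in brackets; the dashed line marks the median of all genes, -0.18. The 6 members span -1.27 to 0.99, a median of 0.07 beside -0.76 for other pan-neuronal genes and 0.59 for working muscle.

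Promoter sequences from RefSeq, on build GRCm38.p6, were matched by symbol for 5 of the 9 genes, of which Tubb3, Uchl1 and Elavl4 were measured. The Tubb3 and Uchl1 promoters are printed as those of the member that differed most and the best expressed member, from 250 bases before to 50 bases after the start. Capitals mark TAAT, the core that many homeodomain proteins bind, searched on both strands, and CAGCTG, an E-box that reads the same on both strands. The motifs cannot overlap each other. The Tubb3 promoter (chr8:123411303-123411602, plus strand) held neither motif, and the Uchl1 promoter (chr5:66675871-66676170, plus strand) held TAAT 1 time, on the opposite strand.
Tubb3: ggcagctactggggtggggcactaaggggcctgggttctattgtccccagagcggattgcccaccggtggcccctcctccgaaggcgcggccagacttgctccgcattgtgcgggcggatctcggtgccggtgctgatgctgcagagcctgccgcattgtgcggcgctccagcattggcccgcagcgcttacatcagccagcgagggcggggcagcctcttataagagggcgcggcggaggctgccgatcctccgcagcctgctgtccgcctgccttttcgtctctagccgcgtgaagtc
Uchl1: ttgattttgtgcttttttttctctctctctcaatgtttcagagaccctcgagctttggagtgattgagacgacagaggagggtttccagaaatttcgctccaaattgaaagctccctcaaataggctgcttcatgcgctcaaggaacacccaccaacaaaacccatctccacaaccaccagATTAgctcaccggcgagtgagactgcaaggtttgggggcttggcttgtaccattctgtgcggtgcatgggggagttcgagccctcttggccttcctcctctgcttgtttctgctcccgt
Of 32851 promoters of this length, 58.0% held TAAT and 16.3% held CAGCTG. Elavl4 has 4 listed starts, whose windows held TAAT 0, 2, 4 and 4 times, with 2 of these windows overlapping. A match describes letters only, and the Tubb3 window was richer in G and C (67.3%) than the median promoter (52.7%).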

How the data were processed

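RNA was sequenced from tdTomato-positive sinoatrial node cells sorted from pooled embryos, 1 Isl1 mutant and 1 control library, after oligo(dT) capture from 10 ng of RNA and a SMARTer kit with 90 bp read pairs, per the labels' protocols. The submitters' processing notes name Trim Galore, FastQC, TopHat2, Bowtie2 and build mm9; which tool made the table of genes the labels and headers do not say. The deposited RPKM values by the authors cover constitutive exons, per the file headers; the header names no unit. The unit was identified, and the read total of each library inferred, from 300 short single-exon genes. With the inferred totals, value times length came out whole, to within 0.01 reads, for 289 in the mutant library and 297 in the control library. The authors' deposited log2 fold change equals the log2 ratio of both values, with a largest difference of 1.89e-07, and their signed fold, a deposited score by the authors, was not used.

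Reads are the smallest whole pair with a whole exon length, recovered for 95.9% of genes, so they are minima. Intervals (exact conditional binomial, Clopper-Pearson, 95%) may be too wide for that reason. They may also be too narrow, because PCR copies, and the 2 mates of a read pair if both were counted, are not independent reads. A fill value, worth 1.56 mutant reads, stands for no read. A symbol with several entries kept that with the highest mean. Members, 17 gene lists (190 genes, 129 measured, 5 of them matched by Ensembl identifier under an older symbol) and the size rule were chosen with earlier results of these data known. Named genes are all members, Isl1, overlap partners, and per list the 3 highest and the 3 most different, to which markers of cell types were added. Alternatives were pseudocounts of 0.1 and 5, centring, floors, 1.5-fold and means. Scripts (Python 3.11.15, pandas 2.3.3, scipy 1.17.1) were tested on simulated data. Some listed marker genes are not reported here.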

Additional observations from a re-analysis of the deposited data

How the results depend on the processing

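With 1 library per genotype there are no replicates to leave out. No paired analysis was possible because each group has a single library. The count of members at least 2-fold higher, 0 by the size rule, was 1 (Nefl) with a pseudocount of 0.1, with centring on the median of genes reaching 5 RPKM in each library, and at 1.5-fold. The count at least 2-fold lower, 0 by the size rule, was 1 (Tubb3) with the floor at 1 RPKM. The members' median of 0.07 became 0.42 when centred on the median of each level class, an alternative chosen after seeing the data, and 0.43 at a floor of 5 RPKM, which keeps 2 genes. It was -0.07 without Nefm, also chosen after seeing the data, and 0.0003 as a mean. The relatives' median of -0.08 became 0.0044 at a floor of 5 RPKM. The median of the other neuronal lists stayed below 0 under all 5 alternatives, from -0.49 to -0.15. The median of all genes was itself below 0 (-0.18) and is not given under these alternatives. A value below 0 therefore does not place these lists below all genes. Nefl and Tubb3 kept their direction under each alternative run for them. Nefm was -0.68 when evenly covered Nefl reads were removed from the shared bases, and Gap43 was 0.28 when centred on its level class; both settings were chosen after seeing the data. Depth limits Elavl3, with no read in the mutant library, and Nefh and Scg5, with at least 5 and 11 reads in their lower library.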

Other observations

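Genes of the machinery that silences neuronal genes in other tissues were listed as well, and all 8 were measured. Rest, the repressor that binds neuronal promoters, was at 2.87 RPKM in the mutant library and 3.47 RPKM in the control library, 1.21-fold lower. Of its cofactor genes, Rcor2 was 3.11-fold higher (interval 2.52 to 3.88; 1.40 RPKM in the mutant library, 0.451 RPKM in the control library) and was listed through the mutant library alone. Ehmt2, a histone H3 methyltransferase gene, was 2.67-fold lower (interval 2.50 to 2.86; 3.71 RPKM in the mutant library, 9.91 RPKM in the control library). Sin3a, which overlaps another gene, was 1.44-fold lower, Hdac2 1.37-fold lower and Hdac1 1.07-fold higher. In all, 2 of the 8 genes were higher and 6 lower (32.9% and 67.1% of all genes), 1 of these, Ehmt2, past the 2-fold size (3.93% of all genes at the 1 RPKM floor), and the median was -0.30 on the log2(RPKM + 1) scale.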
